A study of Mus musculus with 16 samples.

Results

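The liver protects itself from oxidants and reactive chemicals with a set of enzymes whose genes respond to the transcription factor NRF2, and 10 of them were followed here in mice given an inhibitor of the microRNA miR-185. The genes were Nqo1, Gsta1, Gsta2, Gstm1, Gstm2, Gstm3, Gclc, Hmox1, Txnrd1 and Srxn1, taken from a list of genes reported to respond to NRF2. Each was found on the arrays through the accession of its probes, and all 10 were present among the 20284 named genes. All 10 also passed the filter on dim probes, which 25790 features passed in all.

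NRF2, the product of Nfe2l2, is held in the cytoplasm by KEAP1 and degraded. Oxidants and electrophiles modify KEAP1, NRF2 then enters the nucleus, pairs with a small MAF protein and binds antioxidant response elements near its target genes. In hepatocytes these targets conjugate electrophiles to glutathione, make glutathione, reduce quinones, keep thioredoxin reduced and break down haem.

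The RNA came from the livers of male ApoE KO mice, which lack apolipoprotein E, fed a high-fat diet. All 16 mice carried this genotype and diet. The 8 miR-185-inh mice had received a lentivirus carrying an antisense miR-185 sequence, and the other 8 were labelled ctrl-inh. Per the labels the mice were 8 weeks old, and livers were collected after 8 weeks. The labels name no promoter for the lentivirus and no cell type it reached, and the level of miR-185 was not analysed here. Each sample was 1 array, taken as 1 mouse by the numbers in the titles, and where samples are not separate animals the p-values measure only technical spread.

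The arrays were 1-colour Agilent mouse arrays with 59305 non-control spots. Between 58.7% and 74.8% of spots were well above background, and no spot was saturated. The number of arrays, 8 in each group, limits the precision of every value. The control arrays shared 1 slide and scan and the inhibitor arrays a second slide and scan, so treatment, slide and scan cannot be told apart. Within each slide the arrays lay in 2 rows. Row 1 held ctrl-inh mice 1, 2, 3 and 4 and miR-185-inh mice 1, 3, 6 and 7, and row 2 held the mice with higher numbers. Of 8 hepatocyte markers, among them Alb, Ttr and Hnf4a, each was well above background on all 16 arrays. Neutrophil markers lay below 0 in 10 of 10 genes, 2 of them called lower, with a median difference of -0.98, where 14965 of all 25790 features lay below 0 and 3.47% were called lower, and their part in the results was not tested. In bulk liver, fewer cells of a type and less RNA per cell cannot be told apart.

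None of the 10 genes passed the test for a difference between miR-185-inh and ctrl-inh livers. Across all features, limma called 4.71% at an adjusted p under 0.05 (1215 of 25790, 320 higher and 895 lower in miR-185-inh). Of the 10 genes, limma called 0, and 0 had an unadjusted p under 0.05, against 20.2% of all features. The difference was above 0 for 2 genes and below 0 for 8, with a median of -0.039 on the log2 scale. Over all features it was above 0 in 42.0%, with a median of -0.033. Levels are given throughout as log2 signal relative to the 75th percentile of the same array, so a level of 1 lies at 2 times that percentile. A probe's brightness depends on its sequence, and levels of different genes were not compared.

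**Figure D1:**
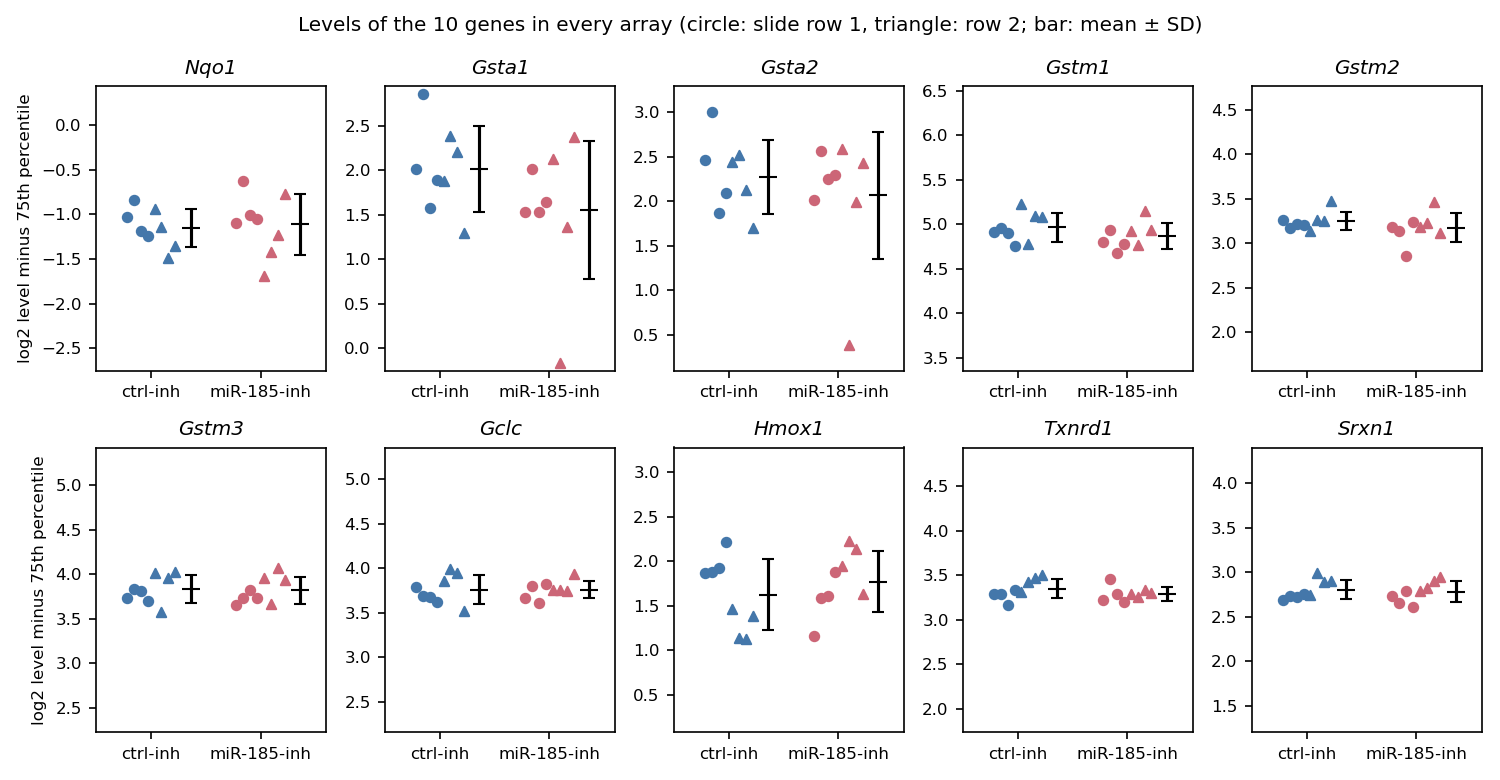
Level of each of the 10 genes on every array, in log2 units relative to the array's 75th percentile, for ctrl-inh (blue) and miR-185-inh (red), with circles for slide row 1, triangles for slide row 2 and bars for mean ± SD over 8 arrays. All panels span the same height in log2 units, and the groups overlap in every panel. The lowest points for Gsta1 and Gsta2 are the same miR-185-inh mouse.

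The genes differed in how closely the mice of a group agreed, and this set how narrow each interval was. Gsta1 had a within-group SD of 0.65, higher than that of 97.4% of features, and Gsta2 one of 0.58, higher than 96.0%. Hmox1 followed with 0.37 (84.2%) and Nqo1 with 0.29 (70.9%). At the other end, Txnrd1 had a within-group SD of 0.094, higher than only 3.77% of features, and Srxn1 one of 0.11 (10.1%). Gclc and the 3 mu-class transferases lay between 0.13 and 0.16.

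**Figure D2:**
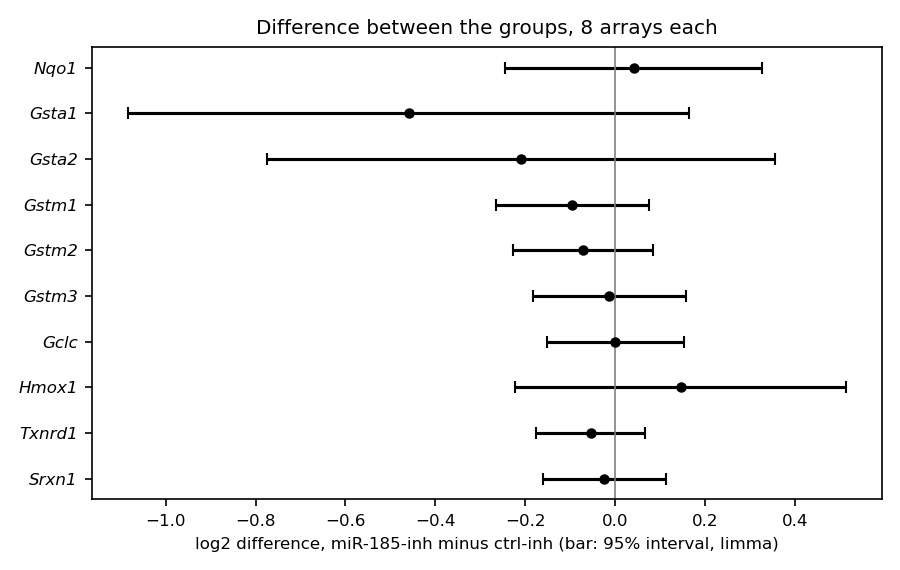
Difference in level between miR-185-inh and ctrl-inh for each of the 10 genes, in log2 units, with 8 arrays in each group. Points are limma estimates and bars are 95% intervals. All 10 intervals include 0, and the interval of Gsta1, from -1.08 to 0.16, is the widest of the 10.

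Gsta1 and Gsta2 encode alpha-class glutathione transferases, enzymes that join glutathione to electrophiles, among them products of lipid peroxidation. In ctrl-inh livers Gsta1 ranged from 1.29 to 2.86, with a median of 1.95. In miR-185-inh livers it ranged from -0.17 to 2.37, with a median of 1.59. The groups overlapped widely, and 5 of 8 miR-185-inh mice lay below the ctrl-inh mean. The means were 2.01 ± 0.48 and 1.55 ± 0.78 (SD, n = 8 each), a difference of -0.46 (SE 0.30, limma adjusted p = 0.414, two-sided exact permutation p = 0.179). This is a ratio of 0.727 with a 95% interval of 0.472 to 1.12.

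Gsta2 ranged from 1.70 to 3.003 in ctrl-inh livers, with a median of 2.28, and from 0.39 to 2.59 in miR-185-inh livers, with a median of 2.27. The medians nearly coincided, and the miR-185-inh group held both the lowest mouse and 3 mice at 2.43 or above. The difference in means was -0.21 (SE 0.27, limma adjusted p = 0.716), a ratio of 0.865 with a 95% interval of 0.584 to 1.28.

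A single mouse widened the spread of both genes in miR-185-inh. In miR-185-inh mouse 9, Gsta1 stood at -0.17 and the next lowest mouse of its group at 1.36. In the same mouse Gsta2 stood at 0.39 and the next lowest at 1.999. Without this mouse, an alternative chosen after seeing the data, the difference was -0.21 for Gsta1 (limma adjusted p = 0.613) and turned to 0.030 for Gsta2 (limma adjusted p = 0.947). The miR-185-inh SD was then 0.37 for Gsta1 and 0.24 for Gsta2 (n = 7), against 0.48 and 0.42 in ctrl-inh.

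The low values of mouse 9 extended to neighbouring alpha-class genes but not to every transferase. Gm10639, a predicted protein-coding gene between Gsta1 and Gsta2 in the same cluster, stood at 0.20 in mouse 9 and between 2.25 and 3.06 in the other miR-185-inh mice. Gsta4, an alpha-class enzyme known for conjugating the lipid aldehyde hydroxynonenal, stood at 1.84 in mouse 9 and between 2.99 and 3.53 in the others. Gsta3, also of the alpha class, stood at 5.53, within the 5.33 to 5.81 of the other mice. Of 25 glutathione transferase features measured on all arrays, Gm10639 included, 8 were lowest in mouse 9 within its group. Of the 25, 4 lay more than 1 log2 unit under the median of the other 7 mice, namely Gsta1, Gsta2, Gsta4 and Gm10639. Of all features, 9.77% were lowest in mouse 9 within its group and 0.759% lay that far under the median. These transferases were looked at after the values of Gsta1 and Gsta2 in mouse 9 were known, and both counts include Gsta1 and Gsta2. Gm10639 may share probe signal with them, so the counts are descriptions and not a test.

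Gsta1, Gsta2 and Gm10639 followed each other from mouse to mouse, and their promoters share sequence. Gsta2 and Gm10639 correlated with r = 0.97 over the 8 ctrl-inh arrays and r = 0.99 over the 8 miR-185-inh arrays, the closest match to Gsta2 among 13766 named genes compared. Without mouse 9 the miR-185-inh value was 0.86 for Gm10639 and 0.83 for Gsta1 against Gsta2. The 3 genes are related neighbours, and their transcripts and probes were not compared. A probe may hybridise RNA of more than 1 of them, and how far their signals are separate was not tested. The RefSeq windows from 250 bases before to 50 bases after each start (GRCm38.p6) show how similar the genes are around the start. Local alignment gave 97.6% identity over 287 columns for Gsta1 and Gm10639, 86.7% over 218 for Gsta1 and Gsta2, and 85.4% over 205 for Gsta2 and Gm10639. Capitals mark the longest run shared by all 3 windows, 24 bases that begin 1 base before the annotated start in Gsta1, 6 bases before it in Gsta2 and 12 bases after it in Gm10639.
Gsta1, chr9:78230419-78230718, plus strand: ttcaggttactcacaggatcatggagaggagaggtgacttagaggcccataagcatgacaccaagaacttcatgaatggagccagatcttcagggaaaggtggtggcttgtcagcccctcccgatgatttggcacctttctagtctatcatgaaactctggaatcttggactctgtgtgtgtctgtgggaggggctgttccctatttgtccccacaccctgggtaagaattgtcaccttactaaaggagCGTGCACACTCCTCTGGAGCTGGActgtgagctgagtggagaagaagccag
Gsta2, chr9:78347096-78347395, minus strand: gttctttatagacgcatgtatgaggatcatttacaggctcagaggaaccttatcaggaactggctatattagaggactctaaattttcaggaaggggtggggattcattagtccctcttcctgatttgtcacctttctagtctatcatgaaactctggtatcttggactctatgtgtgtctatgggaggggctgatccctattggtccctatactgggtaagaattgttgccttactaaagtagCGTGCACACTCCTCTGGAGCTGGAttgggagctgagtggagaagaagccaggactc
Gm10639, chr9:78289678-78289977, plus strand: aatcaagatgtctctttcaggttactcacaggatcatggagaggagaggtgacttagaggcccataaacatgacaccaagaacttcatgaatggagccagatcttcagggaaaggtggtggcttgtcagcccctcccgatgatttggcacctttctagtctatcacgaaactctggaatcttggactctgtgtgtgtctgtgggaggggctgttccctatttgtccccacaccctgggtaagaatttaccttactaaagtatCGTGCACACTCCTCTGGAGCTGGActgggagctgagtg

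**Figure D3:**
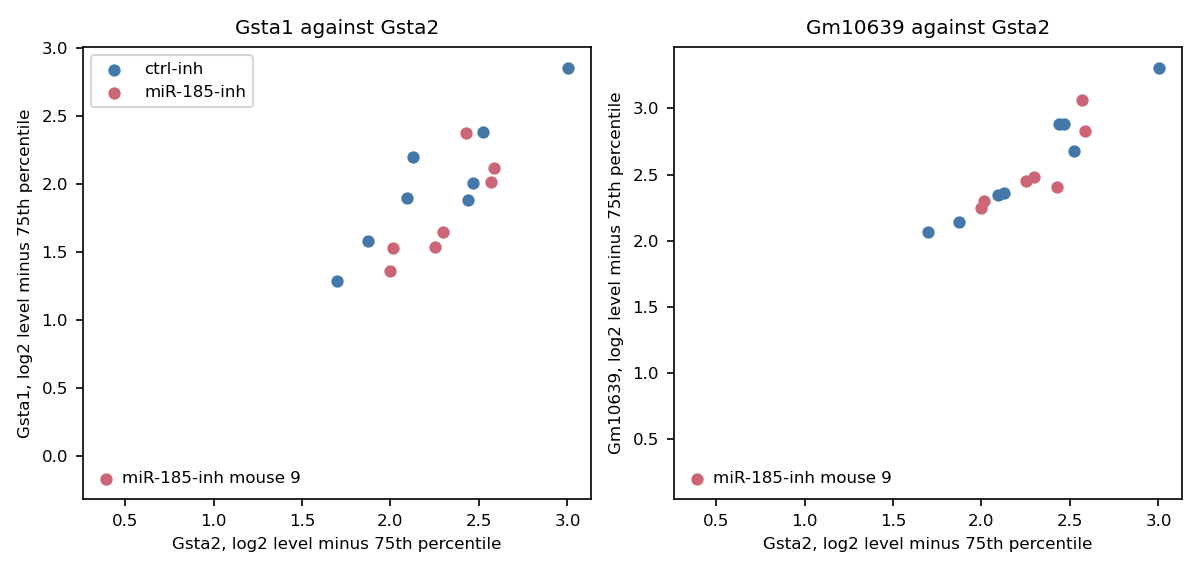
Levels of Gsta1 (left) and Gm10639 (right) against Gsta2 on the same arrays, in log2 units relative to the array's 75th percentile, with 1 point per array for ctrl-inh (blue) and miR-185-inh (red). The points rise together in both groups, and miR-185-inh mouse 9 lies apart at 0.39 for Gsta2, -0.17 for Gsta1 and 0.20 for Gm10639.

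Gstm1, Gstm2 and Gstm3 encode mu-class glutathione transferases, which conjugate epoxides and other electrophiles and lie side by side in one gene cluster. Gstm1 ranged from 4.76 to 5.23 in ctrl-inh livers (median 4.94) and from 4.68 to 5.15 in miR-185-inh livers (median 4.86). The ranges overlapped, with 7 of 8 miR-185-inh mice below the ctrl-inh mean. The difference in means was -0.095 (SE 0.081, limma adjusted p = 0.552), a ratio of 0.936 with a 95% interval of 0.832 to 1.05.

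Gstm2 ranged from 3.14 to 3.47 in ctrl-inh livers (median 3.23) and from 2.86 to 3.47 in miR-185-inh livers (median 3.18). Again 7 of 8 miR-185-inh mice lay below the ctrl-inh mean, yet the highest mice of both groups were level. The difference was -0.072 (SE 0.074, limma adjusted p = 0.636, 95% interval -0.23 to 0.084). Gstm2 had 3 probes, and they did not give 1 answer. The second probe gave -0.20 (SE 0.077, exact permutation p = 0.00761), which missed the threshold over all probes (limma adjusted p = 0.202), and the third gave -0.0063.

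Gstm3 ranged from 3.58 to 4.02 in ctrl-inh livers (median 3.82) and from 3.66 to 4.07 in miR-185-inh livers (median 3.78). Its groups were the closest of the mu class, with a difference of -0.013 (SE 0.081, limma adjusted p = 0.952). Its second probe gave 0.14 (SE 0.14), with an SD of 0.38 in miR-185-inh against 0.073 in ctrl-inh. The sequences of mu-class transferases are close, so these probes may share RNA between family members.

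Gclc encodes the catalytic subunit of glutamate-cysteine ligase, the rate-limiting enzyme of glutathione synthesis. It ranged from 3.53 to 3.99 in ctrl-inh livers (median 3.74) and from 3.61 to 3.93 in miR-185-inh livers (median 3.75). The difference in means was -0.000136 log2 units (SE 0.072, limma adjusted p = 0.999). The 95% interval of the ratio ran from 0.900 to 1.11.

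Nqo1 encodes the quinone reductase that serves as a standard readout of NRF2 activity. It ranged from -1.48 to -0.84 in ctrl-inh livers (median -1.17) and from -1.69 to -0.62 in miR-185-inh livers (median -1.07). The miR-185-inh range enclosed that of the controls at both ends. The means were -1.15 ± 0.21 and -1.11 ± 0.34 (SD, n = 8 each), a difference of 0.041 (SE 0.14, limma adjusted p = 0.901, exact permutation p = 0.776). The ratio was 1.03 with a 95% interval of 0.844 to 1.25. With normexp background correction the Nqo1 difference was 0.25 (limma adjusted p = 0.288).

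Txnrd1 encodes cytosolic thioredoxin reductase, which uses NADPH to keep thioredoxin reduced. It ranged from 3.17 to 3.50 in ctrl-inh livers (median 3.32) and from 3.20 to 3.45 in miR-185-inh livers (median 3.29). The miR-185-inh range lay inside that of the controls, with 7 of 8 mice below the ctrl-inh mean. The difference was -0.055 (SE 0.058, limma adjusted p = 0.648), a ratio of 0.963 with a 95% interval of 0.885 to 1.05.

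Srxn1 encodes sulfiredoxin, which repairs over-oxidised peroxiredoxins. It ranged from 2.69 to 2.998 in ctrl-inh livers (median 2.75) and from 2.61 to 2.95 in miR-185-inh livers (median 2.79). The groups overlapped almost fully, with a difference of -0.024 (SE 0.065, limma adjusted p = 0.880) and a 95% interval of the ratio from 0.895 to 1.08.

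RefSeq promoter windows of 300 bases were used for 8 of the 10 genes, all but Hmox1 and Gclc. There were 11 windows in all, so some genes had more than 1. The windows were searched on both strands for the core of the antioxidant response element, TGACNNNGC, and for the related AP-1 type site TGANTCA. TGACNNNGC was found in 2 of the 11 windows, 1 of Txnrd1 and 1 of Srxn1, against 12.4% of all 32851 windows. In Txnrd1 it lay on the minus strand, 92 bases before the start. TGANTCA was found in the Srxn1 window alone of the 11, against 7.81% of all windows. The Srxn1 window (GRCm38.p6) is printed because it holds both motifs. Capitals mark the matches, TGANTCA at 102 and 45 bases before the start and TGACNNNGC on the minus strand at 28 bases after it. These are matches of letters in a short window, and elements farther from the start were not searched.
Srxn1, chr2:152105274-152105573, plus strand: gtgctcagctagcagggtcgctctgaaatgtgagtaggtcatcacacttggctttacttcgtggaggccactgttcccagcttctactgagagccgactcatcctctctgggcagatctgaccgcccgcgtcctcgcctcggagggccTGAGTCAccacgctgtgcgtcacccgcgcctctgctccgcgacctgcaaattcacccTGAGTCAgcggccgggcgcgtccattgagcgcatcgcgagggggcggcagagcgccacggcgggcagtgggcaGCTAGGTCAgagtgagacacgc

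Hmox1 encodes haem oxygenase, which breaks haem down to biliverdin, iron and carbon monoxide, and in liver is prominent in Kupffer cells, the resident macrophages. Both groups spanned the same range, from 1.13 to 2.22 in ctrl-inh livers (median 1.66) and from 1.16 to 2.22 in miR-185-inh livers (median 1.75). The difference of 0.15 (SE 0.17, limma adjusted p = 0.694, 95% interval -0.22 to 0.51) was smaller than either group's SD (0.40 and 0.35, n = 8 each).

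Behind this lay opposite patterns in the 2 slide rows. In row 1 the 4 ctrl-inh mice lay between 1.86 and 2.22 and the 4 miR-185-inh mice between 1.16 and 1.88, a difference of -0.41 (limma adjusted p = 0.215; 17.9% of features had an unadjusted p under 0.05 in this row). In row 2 the ctrl-inh mice lay between 1.13 and 1.47 and the miR-185-inh mice between 1.63 and 2.22, a difference of 0.70 (limma adjusted p = 0.0523; 21.2% of features had an unadjusted p under 0.05). The groups did not overlap in row 2 and barely did in row 1. The interaction of treatment with slide row was 1.12 for Hmox1 (limma over all features, adjusted p = 0.0482), a term called for 0.372% of features. Hmox1 was the only 1 of the 10 genes called for it, and the other 9 had adjusted p from 0.503 to 0.981. Some other reported NRF2 targets turned too, Akr1b8 from -0.47 in row 1 to 0.32 in row 2 and Akr1b10 from -0.57 to 0.26. Abcc1 went from -0.42 to 0.23 and Abcc4 from -0.30 to 0.79. None of these was called for the interaction (limma adjusted p from 0.0815 to 0.129). In ctrl-inh each was lower in row 2 (limma adjusted p from 0.0269 to 0.0462). Abcc2 turned the other way (0.20 to -0.16), and that list's medians were 0.048 and 0.068. Within the ctrl-inh slide, Hmox1 was lower in row 2 than in row 1 by limma (difference -0.69, adjusted p = 0.0230), as 4.65% of features were called for row in that group and 26.8% had an unadjusted p under 0.05. Within the miR-185-inh slide the same difference was 0.43 (adjusted p = 0.416), and 0% of features were called, with 11.6% at an unadjusted p under 0.05.

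**Figure D4:**
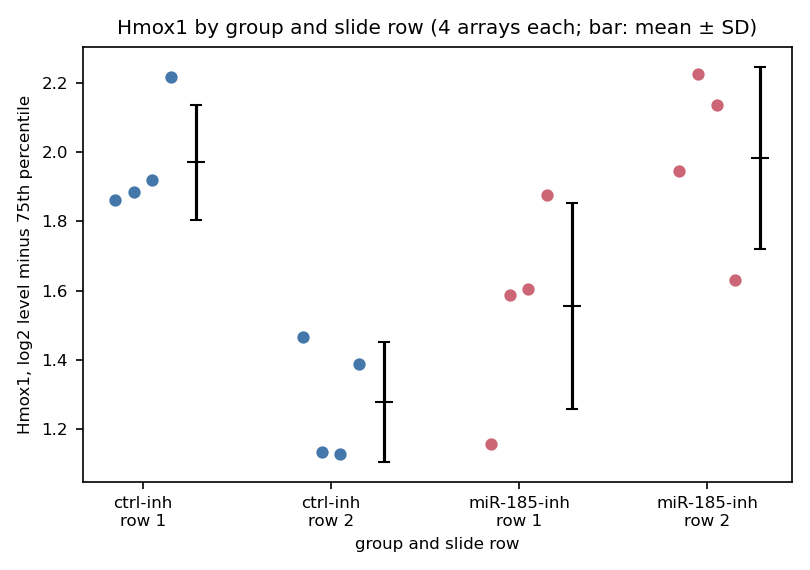
Hmox1 level by group and slide row, in log2 units relative to the array's 75th percentile, with 1 point per array (4 in each column) and bars for mean ± SD. The 4 ctrl-inh arrays of row 1 lie between 1.86 and 2.22 and those of row 2 between 1.13 and 1.47, whereas the miR-185-inh arrays of row 2 lie between 1.63 and 2.22.

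The dimmer of the 2 Hmox1 probes gave the same pattern, with ctrl-inh means of -0.91 in row 1 and -1.99 in row 2, miR-185-inh means of -1.77 and -1.10, and an interaction of 1.75 (limma adjusted p = 0.0416). The call was close to the threshold. Leaving out 1 array at a time gave an interaction of 0.98 to 1.24 with adjusted p from 0.0198 to 0.105. It was lost without any 1 of 13 arrays, namely each of the 8 controls (mice 1, 2, 3, 4, 8, 9, 11 and 12) and mice 3, 6, 8, 9 and 10 of the inhibitor group.

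Other measures moved with slide row as well. Row also separates lower from higher mouse numbers. In ctrl-inh, 68.6% to 74.8% of spots were well above background in row 1 and 58.7% to 64.2% in row 2. In miR-185-inh the share was 62.5% to 67.1% in row 1 and 60.7% to 62.3% in row 2. Hmox1 correlated with this share at r = 0.79 over the 8 ctrl-inh arrays and r = -0.65 over the 8 miR-185-inh arrays. Of 11 Kupffer cell and macrophage markers tested, miR-185-inh was below ctrl-inh in 11 in row 1 and in 3 in row 2. Their median difference was -0.37 in row 1 and 0.090 in row 2, against 0.0070 and -0.070 over all features. The summed linear level of these markers ran from 103 to 120 in ctrl-inh row 1 and 84.2 to 113 in ctrl-inh row 2. In miR-185-inh it ran from 66.7 to 104 in row 1 and 70.3 to 115 in row 2. No marker of the 11 was called for the interaction (0 by limma), whose median over them was 0.49 against -0.10 over all features. Marker medians of lymphocytes, sinusoidal endothelial cells and stellate cells also turned. They were -0.60, -0.32 and -0.29 in row 1 and 0.45, 0.35 and 0.53 in row 2. Those of hepatocyte, pericentral and periportal markers went from 0.039, 0.20 and 0.13 to -0.27, -0.18 and -0.072. Those of neutrophil, cholangiocyte and erythroid markers lay below 0 in both rows. The part of spot quality, mouse number, macrophage RNA or RNA of other cells in the Hmox1 pattern was not tested.

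The 10 genes did not move as a block from mouse to mouse in ctrl-inh. In miR-185-inh their pairs leaned positive, a lean that was not tested. Over the 45 pairs, the median Pearson r was -0.067 in ctrl-inh, with 20 pairs above 0, and 0.28 in miR-185-inh, with 33 above 0. All pairs of features had a median of 0.064 and 0.038, with 54.8% and 53.0% above 0. Pairs with r of 0.7 or more made up 8.89% of the gene pairs in ctrl-inh (6.70% of all feature pairs) and 6.67% in miR-185-inh (5.58%). The sign of the ctrl-inh median turned with quantile normalization, to 0.063, and the difference between the groups' medians was not tested. Of 90 relations, 0 passed the exact permutation test after Benjamini-Hochberg adjustment by r or by rho. Unadjusted, 7 had p under 0.05 by r and 5 by rho.

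**Figure D5:**
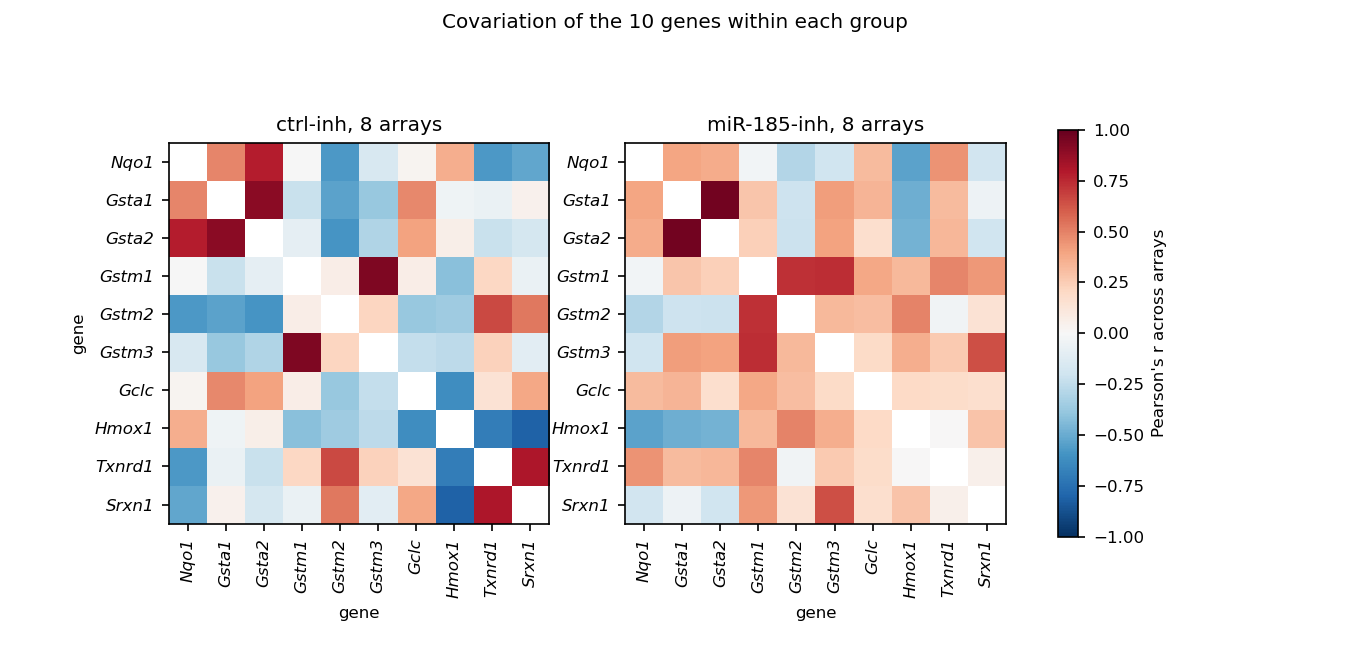
Pearson's r for each pair of the 10 genes across 8 ctrl-inh arrays (left) and 8 miR-185-inh arrays (right), on a colour scale from -1 (blue) to 1 (red). The squares for Gsta1 with Gsta2 (0.91 and 0.97) and Gstm1 with Gstm3 (0.94 and 0.74) are dark red in both groups.

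Only 2 pairs reached an r of 0.7 in both groups, and each joins neighbours of 1 gene cluster. Gsta1 and Gsta2 had r = 0.91 in ctrl-inh (rho 0.88, exact permutation p = 0.00327 and 0.00724, adjusted 0.0982 and 0.163) and 0.64 without ctrl-inh mice 2 and 12, the most extreme for Gsta1. In miR-185-inh they had r = 0.97 (rho 0.93, exact permutation p = 0.00141 and 0.00223, adjusted 0.0636 and 0.163) and 0.95 without mice 9 and 12. Gstm1 and Gstm3 had r = 0.94 in ctrl-inh (rho 0.88, exact permutation p = 0.00114 and 0.00724, adjusted 0.0636 and 0.163) and 0.97 without mice 4 and 8. In miR-185-inh they had r = 0.74 (rho 0.45, exact permutation p = 0.0318 and 0.267, adjusted 0.409 and 0.860) and 0.75 without mice 6 and 10.

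In ctrl-inh, 2 pairs from outside these clusters also reached 0.7. Nqo1 and Gsta2 had r = 0.79 in ctrl-inh (rho 0.74, exact permutation p = 0.0212 and 0.0458, adjusted 0.317 and 0.690) and 0.37 in miR-185-inh (rho 0.31). Without the 2 arrays most extreme for Nqo1 these were 0.82 and 0.84. Txnrd1 and Srxn1 had r = 0.81 in ctrl-inh (rho 0.90, exact permutation p = 0.0166 and 0.00456, adjusted 0.317 and 0.163) and 0.048 in miR-185-inh (rho 0.38). Without the 2 arrays most extreme for Txnrd1 they were 0.88 and 0.75, so the low miR-185-inh value rested on mice 3 and 7. Hmox1 and Srxn1 had r = -0.81 in ctrl-inh (rho -0.62, exact permutation p = 0.0187 and 0.115, adjusted 0.317 and 0.690) and 0.28 in miR-185-inh (rho 0.50), or -0.89 and 0.19 without the 2 arrays most extreme for Hmox1. In ctrl-inh, Srxn1 and Txnrd1 also correlated with the share of spots well above background, at r = -0.81 and r = -0.72. With the array's 75th percentile, which is subtracted from every level, r in ctrl-inh was -0.53 for Srxn1 and -0.80 for Txnrd1. It was 0.66 for Nqo1, 0.52 for Gsta1, 0.60 for Gsta2, -0.57 for Gstm1, -0.68 for Gstm3 and 0.57 for Hmox1. In miR-185-inh the same values were, in this order, -0.16, -0.046, 0.13, 0.56, 0.62, 0.15, 0.47 and 0.18. The part of that share or of the percentile in these pairs was not tested. A difference in r between the groups was not tested. Each slide row held 4 arrays of a group, too few for a correlation within rows.

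For each of the 10, the genes with the most similar pattern were sought among 13766 named genes well above background on all 16 arrays, by the lower of the 2 within-group r, each over 8 arrays. The values were picked as the highest of many and are given as descriptions. For Hmox1 the closest were Lyn, a kinase of myeloid and B cells (0.93 in ctrl-inh and 0.92 in miR-185-inh), and the organic anion transporter Slco3a1 (0.89 and 0.97). For Nqo1 they were Orc5, a subunit of the origin recognition complex (0.87 and 0.86), and Impg2 (0.85 and 0.88). For Gstm2 they were Ly6d (0.86 and 0.86) and the endothelial nitric oxide synthase Nos3 (0.84 and 0.92), and Ly6d was lower in miR-185-inh by 0.62 (limma difference -0.62, adjusted p = 0.0310).

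For Gstm1 the closest were Sars2 (0.80 and 0.79) and Dapk3 (0.77 and 0.79), and for Gstm3 Apod, which encodes apolipoprotein D (0.83 and 0.92), and P3h1 (0.80 and 0.83). For Gsta1 they were the phosphodiesterase gene Pde7a (0.80 and 0.89) and Gm10639 (0.80 and 0.92), and for Gsta2 Gm10639 and Icam4 (0.86 and 0.84). For Txnrd1 they were Vhl, the von Hippel-Lindau ubiquitin ligase subunit (0.87 and 0.83), and Fam174c (0.81 and 0.82). For Srxn1 they were the cadherin gene Fat1 (0.85 and 0.93) and AI646519 (0.85 and 0.94), and for Gclc Zfp692 (0.81 and 0.76) and the follistatin gene Fst (0.89 and 0.75). The 10 genes themselves were not candidates in this search.

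Of 10 regulators of NRF2, 1 was called, with 6 above and 4 below 0 and a median of 0.029. Over all features, 4.71% were called and 42.0% lay above 0, with a median of -0.033. Sqstm1 encodes p62, which draws KEAP1 into autophagy and is itself an NRF2 target. It ranged from 2.88 to 3.12 in ctrl-inh livers (median 3.02) and from 2.56 to 2.94 in miR-185-inh livers (median 2.85), and 5 of 8 miR-185-inh mice lay below every control. It was lower by limma (difference -0.23, SE 0.063, adjusted p = 0.0487, exact permutation p = 0.000622), with -0.25 in row 1 and -0.20 in row 2. The call was lost in 9 of 13 alternatives and without any 1 of 13 of the 16 arrays, where adjusted p reached 0.0874. It was kept without ctrl-inh mouse 9 or miR-185-inh mouse 1 or 3. Nfe2l2 itself differed by 0.14 (SE 0.089, limma adjusted p = 0.393) and Keap1 by -0.096 (SE 0.067, limma adjusted p = 0.456). Mafg, a small MAF partner, differed by 0.19 (limma adjusted p = 0.0996), was called with normexp background correction (0.32, adjusted p = 0.00819) and gave -0.0081 as the mean of its probes.

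In the thioredoxin and peroxiredoxin system 1 of 13 genes was called, against 4.71% of all features. The difference was above 0 in 7 and below 0 in 6, with a median of 0.0054. Txnrd3, a thioredoxin reductase that also carries a glutaredoxin domain, ranged from -0.13 to 0.46 in ctrl-inh livers (median 0.23) and from 0.48 to 1.20 in miR-185-inh livers (median 0.69). All 8 miR-185-inh mice lay above all 8 controls. Txnrd3 was higher in miR-185-inh livers by 0.52 (SE 0.11, limma adjusted p = 0.0146), a ratio of 1.43, and the exact permutation p of 0.000155 is the smallest that 8 against 8 arrays can give. The difference was 0.50 in row 1 and 0.54 in row 2, and the call was kept without each of the 16 arrays in turn. With 4 arrays a group, each row alone missed the threshold (adjusted p = 0.160 and 0.108). Prdx1, a peroxide-reducing peroxiredoxin, differed by -0.15 (adjusted p = 0.198), Prdx4 by 0.16 (adjusted p = 0.229) and Sesn2 by -0.19 (adjusted p = 0.169), all by limma.

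Among glutathione synthesis and reduction genes limma called 0 of 10 tested, against 4.71% of all features. The difference was above 0 in 3 and below 0 in 7, with a median of -0.041. Gpx1, the main hepatic glutathione peroxidase, had the smallest p of these, with means of 5.99 and 5.77 and a difference of -0.22 (limma adjusted p = 0.0610). It was called when arrays were scaled on detected probes (-0.25, adjusted p = 0.0172) and with a trended robust variance (adjusted p = 0.0446). Chac1, which degrades glutathione, differed by -0.35 (SE 0.21), Gpx4 by -0.15 and the amino acid transporter subunit Slc3a2 by -0.081. Of 12 genes listed, Slc7a11 and Ggt1 did not pass the filter.

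Of the other glutathione transferases, limma called 0 of 20 tested, against 4.71% of all features, with 5 above and 15 below 0 and a median of -0.053. The 4 with the smallest p were Gstp2 (-0.19, adjusted p = 0.250, measured on 7 arrays of each group), Gstm5 (-0.11), Gstcd (0.24) and Mgst3 (-0.18). NADPH supply had 6 of 6 below 0 and 0 called, where 14965 of all 25790 features lay below 0. G6pdx, the entry enzyme of the pentose phosphate pathway, differed by -0.16 (SE 0.16), and Pgd, Taldo1 and Idh1 by -0.10, -0.090 and -0.041. Superoxide and peroxide removal had 2 of 4 below 0 and 0 called, with Sod1 at -0.13, Cat at -0.15, Sod2 at 0.077 and Sod3 at 0.090.

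Haem and iron handling had 0 of 8 called, 5 above and 3 below 0, against 4.71% called and 42.0% above 0 over all features. Fth1, the ferritin heavy chain that stores iron, ranged from 4.30 to 4.80 in ctrl-inh livers and from 4.56 to 5.16 in miR-185-inh livers, with 5 of 8 miR-185-inh mice above every control. Its difference of 0.30 (SE 0.095) missed the threshold (limma adjusted p = 0.0838, exact permutation p = 0.00886) and passed it with quantile normalization (0.31, adjusted p = 0.0199) and with array weights (0.34, adjusted p = 0.0358). The transferrin receptor gene Tfrc differed by -0.22, Blvra, a biliverdin reductase, by -0.11, and the iron exporter gene Slc40a1 by 0.13.

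Other reported NRF2 targets had 0 of 18 called, 10 above and 8 below 0, with a median of 0.016. The 4 with the smallest p were the pseudokinase gene Trib3 (0.46, SE 0.22, adjusted p = 0.249), Ugt1a6a (0.38, SE 0.19), Entpd5 (0.14) and Ces2g (0.11). The xenobiotic receptors CAR, PXR and AhR and their targets, listed together, had 0 of 11 called, 9 above and 2 below 0, with a median of 0.12. The receptor genes Nr1i2 (PXR, 0.064), Nr1i3 (CAR, 0.11) and Ahr (0.13) were among those above 0. The list's median was 0.18 in row 1 and -0.053 in row 2. Over all features, 4.71% were called and 42.0% lay above 0. Cyp1a1, the classic AhR target, differed by 0.44 (SE 0.17, limma adjusted p = 0.156) and was called in slide row 2 alone (0.82, adjusted p = 0.0356). In row 1 alone it differed by 0.052 (limma adjusted p = 0.904), and within the ctrl-inh slide it was lower in row 2 than in row 1 (difference -0.76, limma adjusted p = 0.0472). Por differed by 0.19, Tiparp by 0.14 and Ahr by 0.13.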

How the data were processed

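Total liver RNA of 16 mice was measured on 1-colour Agilent arrays, 1 per sample. The authors deposited scanner files that hold, per the file headers, a spot intensity made by Feature Extraction 11.5.1.1 with background subtraction (version 9.1 per the submitters' processing notes), on a grid annotated to mm9. The authors' deposited value table holds log2 values that equal the log2 processed intensity minus a constant per array (column medians -1.30 to -1.22), centred in a way the sources used here do not give.

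Levels were processed intensities on the log2 scale, less the 75th percentile of non-control spots on that array. Outlier spots were dropped, spots of a probe averaged, and probes kept if well above background on at least 8 of 16 arrays. Each gene was represented by its brightest probe, and accessions were named through RefSeq tables (26762 of 55681 probes named). Groups came from the labels. limma 3.58.1 in R 4.3.3 was fitted over all 25790 features with Benjamini-Hochberg adjustment, two-sided. Exact permutation tests used all 12870 splits of the arrays, and correlations all 40320 pairings within a group. Promoters came from RefSeq. On simulated data of 25625 genes for this comparison, limma recovered 70% of 1.5-fold and 88% of 2-fold changes, with 6 false calls. The simulated noise was independent between genes and arrays and held no slide or row effect, so these figures do not cover such effects.

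The 10 genes and the pathway and marker lists were chosen with earlier results of these data known. Named genes were the 10, the 4 of smallest limma p in each pathway list, and the 2 genes most alike each of the 10. A few others were named to give their values by slide row or in mouse 9, or to show what a list held. Alternatives were normexp background correction (on the median spot signal, since the mean spot signal was not used here), quantile normalization, a percentile over detected probes, the authors' table, other filters, the mean of a gene's probes, trended robust variance, array weights, slide position, a replicate block and leaving out each array. The alternatives of the slide row interaction and the values without miR-185-inh mouse 9 were added after seeing the data.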

Additional observations from a re-analysis of the deposited data

Results flagged for a closer look

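In 3 of the 20 sets of 8 arrays checked (10 genes in each group), 1 array stood apart by Dixon's criterion, which chance meets in about 1 set in 20. Gsta1 in miR-185-inh mouse 9 was -0.17, with the next lowest mouse at 1.36. Gsta2 in the same mouse was 0.39, with the next lowest at 1.999. Gstm2 in ctrl-inh mouse 12 was 3.47, with the next highest at 3.26. Gsta1 and Gsta2 follow each other in both groups, so their values in mouse 9 are not separate cases.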

How the results depend on the processing

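None of the 10 genes was called under any of the 13 alternatives or without any 1 array, and their median difference kept its sign. It was -0.095 with normexp, -0.065 with detected probes, -0.056 in row 1 alone and -0.037 to -0.049 in the other alternatives. Without 1 array it was -0.056 to -0.015 (nearest 0 without miR-185-inh mouse 9). Over all features the median was -0.026 with normexp, -0.059 with detected probes and 0.0070 in row 1 alone. In the other alternatives it ran from -0.070 (row 2 alone) to -0.0030 (quantile normalization), and without 1 array from -0.039 to -0.023. The features called numbered 1849 when arrays were scaled on detected probes, 0 in slide row 1 alone (4609 at an unadjusted limma p under 0.05), 466 in row 2 alone and 735 to 1582 without 1 array (against 1215; lowest without miR-185-inh mouse 7). Calls split 549 higher and 602 lower with normexp and 396 and 467 with quantile normalization. The features called for the slide row interaction numbered 30 with normexp, 194 with quantile normalization, 400 with detected probes, 2366 with no filter, 42 with the mean of probes and 5 to 449 without 1 array (against 96). The mouse numbers 1, 3, 8, 9 and 12 occur in both groups, and the deviations of same-numbered mice correlated at -0.13 to 0.11. Differently numbered mice were not compared, so these values cannot decide whether the numbers pair the mice. The replicate block over the shared mouse numbers called 0 features (2598 at an unadjusted limma p under 0.05), as did the same 10 arrays without the block, 0. The median r of the gene pairs was, in ctrl-inh, -0.14 with normexp, 0.063 with quantile normalization, -0.052 with detected probes, -0.12 in the authors' table and -0.028 with row and column as covariates, and in miR-185-inh 0.27, 0.44, 0.35, 0.29 and 0.27. Small differences changed sign. Gclc gave 0.0028 with quantile normalization, 0.0019 in the authors' table, 0.010 with array weights, 0.034 in row 1 and 0.015 with the block. Gstm3 gave 0.065 with the mean of probes, 0.0098 with array weights and 0.011 in row 2, and Nqo1 -0.065 with array weights and -0.048 in row 2. In row 1 alone Hmox1 gave -0.41, Txnrd1 0.021, Gstcd -0.12, Sod3 -0.10 and Idh1 0.10, and in row 2 alone G6pdx gave 0.20, Por -0.10, Ahr -0.054 and Sod2 -0.021. Normexp gave Sod1 0.022 and Sod2 -0.013, and the mean of probes gave Mafg -0.0081 and Tfrc 0.029. Without 1 array, Nqo1 ran from -0.029 to 0.12, Gsta2 from -0.29 to 0.030, Gstm3 from -0.049 to 0.014, Gclc from -0.034 to 0.032 and Srxn1 from -0.047 to 0.0039. The cause of these changes was not tested. All 10 genes were well above background on every array. With 1 array a mouse, spread between mice and spread between arrays cannot be told apart.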
